A study of Homo sapiens with 4 samples.

Results

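The 9 genes described here are the plasminogen activators *PLAU* and *PLAT*, the receptor *PLAUR*, and the serpins *SERPINE2*, *SERPINB2*, *SERPINB5*, *SERPINB1*, *SERPINB6* and *SERPINA1*. They were given as a list of names, which was drawn up with earlier results of these data known, and were found through their Entrez identifiers among the 16813 genes listed in at least 1 library. All 9 were listed in at least 1 library, and 8 of them passed the filter on low counts that left 13148 genes for testing. The exception was *SERPINA1*.

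Plasminogen activators are secreted serine proteases that cut the zymogen plasminogen into plasmin, a broad protease that dissolves fibrin and degrades extracellular matrix. Urokinase, encoded by *PLAU*, acts at the cell surface when bound to its receptor, encoded by *PLAUR*, and has long been studied in the invasion of carcinoma cells, while tissue plasminogen activator, encoded by *PLAT*, is best known for dissolving clots. Serpins are inhibitors that trap a protease in an irreversible complex, and most of the clade B serpins remain inside the cell.

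The study sequenced RNA from PC9 cells, an *EGFR*-mutant human lung adenocarcinoma line, and from PC9OR cells, a line derived from it that is resistant to the EGFR inhibitor osimertinib. Each line gave 2 biological replicates, so 4 libraries were compared. The labels give the genotype of both lines as WT and describe PC9 as the control and PC9OR as osimertinib resistant, without a treatment, a time or a passage number, and both lines grew in RPMI medium with fetal bovine serum. Both lines came from another laboratory, a single resistant line was measured, and resistance and other changes acquired in culture cannot be told apart.

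For each gene the authors deposited an expected count (an estimate of its reads, not normalised) and an FPKM value, which scales it by transcript length and library size. The expected counts summed to between 23201307 and 32203998 per library. Differences between the lines are given in CPM, counts scaled to the normalised library size, and a count of 3 in a library, taken as the lowest level the depth can show, equalled between 0.0936 and 0.128 CPM. This floor and the intervals on counts cover counting error only. The PC9 libraries differed from each other more than the PC9OR libraries did, with a chi-square per degree of freedom of 65.5 against 9.93. Their difference also followed transcript length, with a rank correlation of -0.38 across genes, against -0.01 between the PC9OR libraries. The log2 fold change of PC9OR against PC9 cells followed length as well, with a rank correlation of -0.34 across genes. The epithelial marker *EPCAM* stood between 319 and 343 CPM in all 4 libraries. It was the only tested gene of the 10 on the lung epithelial list that did not pass, with 4 of the 7 tested higher in PC9OR cells and 2 lower (log2 fold changes of 1.28 for *KRT8* and 1.13 for *KRT18* but -1.46 for *CDH1* and -2.65 for *MUC1*). By the same rule 15.6% of all genes tested were higher and 20.8% were lower. The lung lineage marker *SFTPB* was listed in none and *NKX2-1* was at 0 in both PC9 libraries. The 6 fibroblast markers summed to between 1.45 and 1.74 CPM, and the red cell markers were at 0. The 3 endothelial markers summed to 37.0 and 24.0 CPM in PC9 and 5.06 and 5.34 CPM in PC9OR cells, nearly all of it *CDH5*, with *VWF* at 0 in 3 libraries. The 4 immune markers summed to 16.7 and 13.6 against 7.13 and 6.84 CPM, mostly *CD68*, while *CD3E* was listed in none and *PTPRC* had at most 0.0427 CPM. The part of these differences in the results was not tested.

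Of the 8 tested genes, PC9OR cells had 2 at a higher and 5 at a lower level than PC9 cells at an adjusted p under 0.05, and *PLAU* did not pass (quasi-likelihood test of edgeR, with Benjamini-Hochberg adjustment over all genes tested). Over all 13148 genes, 15.6% were higher and 20.8% were lower by the same rule. More than 2-fold in addition, 2 were higher (6.13% of all genes tested) and 3 were lower (11.6%). *SERPINB2*, which is in both counts of lower genes, passed the filter on low counts only through PC9 cells. Of the 8 genes, 2 were above the PC9 range in both PC9OR libraries (39.6% of all genes tested), 5 were below it in both (38.2%), and *PLAU* overlapped. The median log2 fold change of the 8 genes was -0.61, against 0.01 over all genes tested, where a value of 1 is a 2-fold difference and a negative value means lower in PC9OR cells. In libraries of whole cultures, fewer cells with a transcript and less transcript per cell cannot be told apart. Each p-value of this test rests on the spread between libraries of the same line. That spread is pooled over both lines and drawn toward a trend over all genes tested. Nothing in the labels says how far apart these cultures were grown, while an exact permutation test of 2 against 2 libraries cannot go below 0.333.

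**Figure D1:**
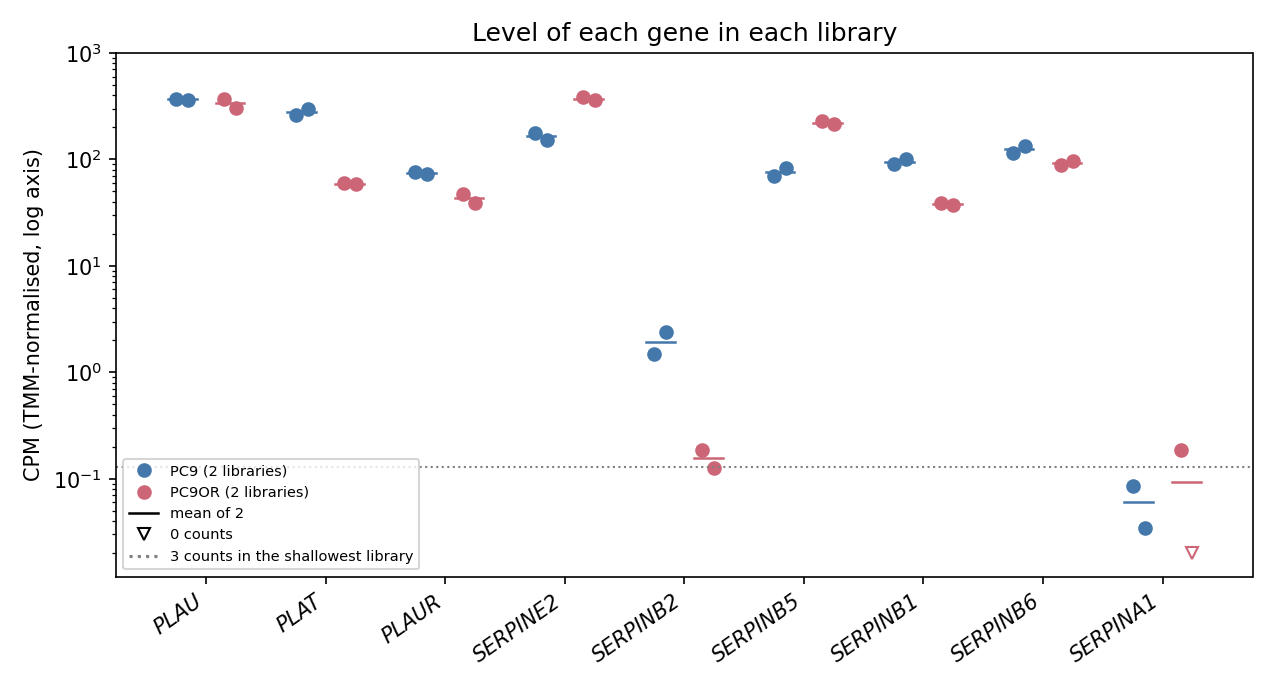
Level of the 9 genes in each library, in TMM-normalised CPM on a log axis. Points are libraries, short lines are means of 2, the open triangle marks a library with 0 counts and the dotted line is 3 counts in the shallowest library. PLAT, PLAUR, SERPINB2, SERPINB1 and SERPINB6 sit lower in both PC9OR libraries, SERPINE2 and SERPINB5 sit higher, and PLAU overlaps.

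Of the activators, *PLAT* fell. It stood at 263 and 300.3 CPM in PC9 replicates 1 and 2 and at 59.9 and 58.4 CPM in PC9OR replicates 1 and 2, so that both resistant libraries were far below both parental ones. The means were 282 ± 26.4 CPM and 59.1 ± 1.06 CPM (SD, n = 2 each), a 4.76-fold lower level. The log2 fold change came to -2.25 ± 0.122 (SE; adjusted p = 0.00283, edgeR's quasi-likelihood test), and 3.80% of all genes tested had a lower value. Over 15 alternative settings it ran from -2.35 to -2.15, and the adjusted p stayed under 0.05 in each of them. In GRCh37 coordinates, *PLAT* (Entrez gene 5327) spans 42032236 to 42065227 of chromosome 8, minus strand.

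*PLAU* remained the most abundant activator transcript in both lines. It stood at 370 and 365 CPM in the PC9 libraries and at 367 and 304 CPM in the PC9OR libraries. The first PC9OR library lay between the PC9 libraries and the second lay below both. The log2 fold change was -0.13, with a 95% interval from -0.47 to 0.21 (adjusted p = 0.461, edgeR's quasi-likelihood test), so that a rise or a fall of more than 2-fold lies outside the interval. Without PC9OR replicate 2 it was 0.0056 (adjusted p = 0.992), and the MA-plot-based model on summed replicates, which uses no replicate spread, gave an adjusted p of 2.3e-20, the lowest over the alternatives. *PLAU* (Entrez gene 5328) spans 75668935 to 75677254 of chromosome 10, plus strand, and 7528 bases of it overlap the lncRNA *C10orf55* on the opposite strand. *C10orf55* reached at most 2.91 CPM.

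The receptor gene *PLAUR* was lower in PC9OR cells. Its level was 76.7 and 72.9 CPM in the PC9 libraries and 47.7 and 39.3 CPM in the PC9OR libraries, with no overlap. The means were 74.8 ± 2.65 CPM and 43.5 ± 5.90 CPM (SD, n = 2 each), and the log2 fold change came to -0.78 ± 0.139 (SE; adjusted p = 0.0156, edgeR's quasi-likelihood test). The call did not hold with a single PC9OR library. Without PC9OR replicate 1 the log2 fold change was -0.92 (adjusted p = 0.0627) and without PC9OR replicate 2 it was -0.64 (adjusted p = 0.167), within a range of adjusted p from 3.17e-107 to 0.167 over the alternatives. *PLAUR* (Entrez gene 5329) spans 44150247 to 44174699 of chromosome 19, minus strand.

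Among the members that inhibit plasminogen activators, *SERPINE2* rose and *SERPINB2* fell. *SERPINE2*, Entrez gene 5270, encodes protease nexin 1, an extracellular inhibitor of thrombin, urokinase and tissue plasminogen activator. It stood at 178 and 153 CPM in the PC9 libraries and at 384 and 360.0 CPM in the PC9OR libraries. Both resistant libraries were above both parental ones, with means of 165 ± 18.0 CPM and 372 ± 17.1 CPM (SD, n = 2 each), a 2.25-fold higher level. The log2 fold change came to 1.17 ± 0.127 (SE; adjusted p = 0.00659, edgeR's quasi-likelihood test), above that of 93.1% of all genes tested, and it ran from 1.05 to 1.28 over the alternatives with the adjusted p under 0.05 in each. The gene spans 224839762 to 224904035 of chromosome 2, minus strand.

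*SERPINB2*, Entrez gene 5055, encodes plasminogen activator inhibitor 2, a urokinase inhibitor that is largely retained in the cell. Its expected counts were 35 and 69 in the PC9 libraries, with exact 95% Poisson intervals of 24.4 to 48.7 and 53.7 to 87.3, and 6 and 4 in the PC9OR libraries, with intervals of 2.2 to 13.1 and 1.09 to 10.2. In CPM these are 1.49 and 2.39 against 0.187 and 0.125, so the transcript was scarce in both lines and close to the floor of 3 counts in PC9OR cells. The intervals of the PC9 and PC9OR libraries did not overlap. The log2 fold change came to -3.60 ± 0.532 (SE; adjusted p = 0.0110, edgeR's quasi-likelihood test), with a 95% interval from -4.97 to -2.24. The gene passed the filter on low counts only through its level in PC9 cells, so it had to be lower in PC9OR cells if it differed. On the scale log2(FPKM + 1), which understates the change of low genes, the log2 fold change was -0.71, and a requirement of 10 counts in every library removed the gene.

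Levels of different genes were set beside each other in FPKM, which is scaled per length. The level of *SERPINE2* was 59.4 and 49.9 FPKM in the PC9 libraries and 124 and 115 FPKM in the PC9OR libraries. The sum of *PLAU* and *PLAT* was 174 and 177 FPKM in the PC9 libraries and 125 and 103 FPKM in the PC9OR libraries, and no test was made on these sums. *SERPINE2* divided by the activator sum was 0.341 and 0.281 in PC9 cells and 1.00 and 1.11 in PC9OR cells, so that its level was well below the activator sum in both parental libraries and close to it in both resistant libraries. Against *PLAU* alone, the ratio was 0.520 and 0.452 in PC9 cells and 1.12 and 1.27 in PC9OR cells. These are transcript ratios of single genes, other inhibitors of the activators are not counted in them, and they say nothing on protein or protease activity.

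**Figure D2:**
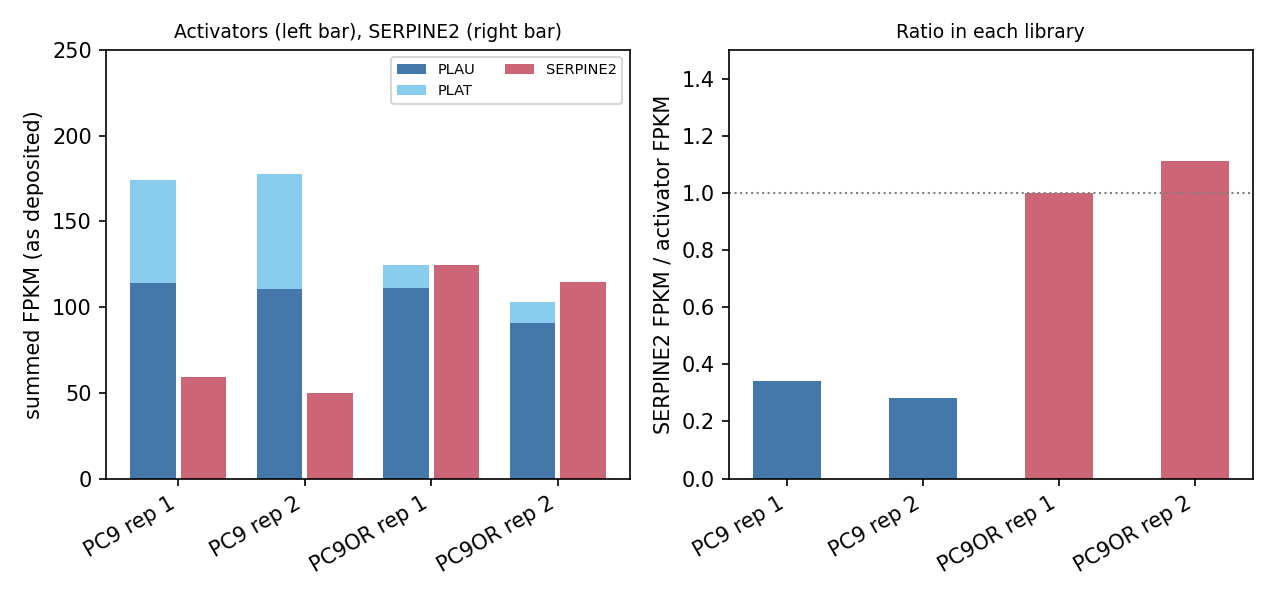
Left, summed FPKM of the activator genes PLAU and PLAT (left bar of each pair) and FPKM of the inhibitor gene SERPINE2 (right bar) in each library. Right, SERPINE2 divided by the activator sum, with a dotted line at equality; the ratio is 0.341 and 0.281 in the PC9 libraries and 1.00 and 1.11 in the PC9OR libraries.

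The composition of the activator pair changed with *PLAT*. The FPKM of *PLAT* was 34.4% and 37.8% of the activator sum in PC9 cells and 10.7% and 12.3% in PC9OR cells, and the ratio of *PLAU* to *PLAT* was 1.91 and 1.65 in PC9 cells and 8.34 and 7.10 in PC9OR cells. Relative to the receptor, the ratio of *PLAU* to *PLAUR* was 2.97 and 3.06 in PC9 cells and 4.71 and 4.72 in PC9OR cells. The libraries of the lines did not overlap in any of these ratios. Each ratio holds *PLAT* or *PLAUR*, which did not overlap on their own. Of all single genes tested, 39.6% were above the PC9 range in both PC9OR libraries and 38.2% were below it in both.

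The clade B serpins outside the plasminogen system moved in both directions. *SERPINB5*, Entrez gene 5268, encodes maspin, an epithelial serpin that does not inhibit proteases in the usual way. It stood at 70.4 and 82.8 CPM in the PC9 libraries and at 229 and 214 CPM in the PC9OR libraries, with no overlap. The means were 76.6 ± 8.77 CPM and 221 ± 11.2 CPM (SD, n = 2 each), a 2.89-fold higher level. Its log2 fold change of 1.53 (SE 0.130, adjusted p = 0.00493, edgeR's quasi-likelihood test) was the highest among the 8 genes tested, and it ran from 1.41 to 1.64 over the alternatives with the adjusted p under 0.05 in each.

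*SERPINB1*, Entrez gene 1992, encodes an intracellular inhibitor of neutrophil elastase. It stood at 90.3 and 101 CPM in the PC9 libraries and at 38.9 and 37.7 CPM in the PC9OR libraries, so both resistant libraries were lower. The means were 95.6 ± 7.43 CPM and 38.3 ± 0.876 CPM (SD, n = 2 each), a 2.50-fold lower level, and the log2 fold change came to -1.32 ± 0.118 (SE; adjusted p = 0.00526, edgeR's quasi-likelihood test). Over the alternatives it ran from -1.41 to -1.26 and kept an adjusted p under 0.05. In FPKM, *SERPINB5* was below *SERPINB1* in both PC9 libraries, at ratios of 0.789 and 0.831, and above it in both PC9OR libraries, at ratios of 5.97 and 5.74.

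*SERPINB6*, Entrez gene 5269, encodes an intracellular inhibitor of trypsin-like proteases. Its level was 115 and 133 CPM in the PC9 libraries and 88.7 and 95.9 CPM in the PC9OR libraries, a small difference without overlap. The log2 fold change came to -0.43 ± 0.124 (SE; adjusted p = 0.0496, edgeR's quasi-likelihood test), just past the threshold. The adjusted p was 0.0663 without a filter on low counts, 0.416 without PC9OR replicate 1 and 0.300 without PC9OR replicate 2, within a range from 2.13e-65 to 0.416 over the alternatives.

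*SERPINA1*, Entrez gene 5265, encodes alpha-1 antitrypsin, the main elastase inhibitor of plasma. It had 2 and 1 expected counts in the PC9 libraries and 6 and 0 in the PC9OR libraries, at most 0.187 CPM. These counts are at or near the floor, so a difference between the lines was not detectable at this depth, and no fold is given. The gene spans 94843084 to 94857030 of chromosome 14, minus strand.

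**Figure D3:**
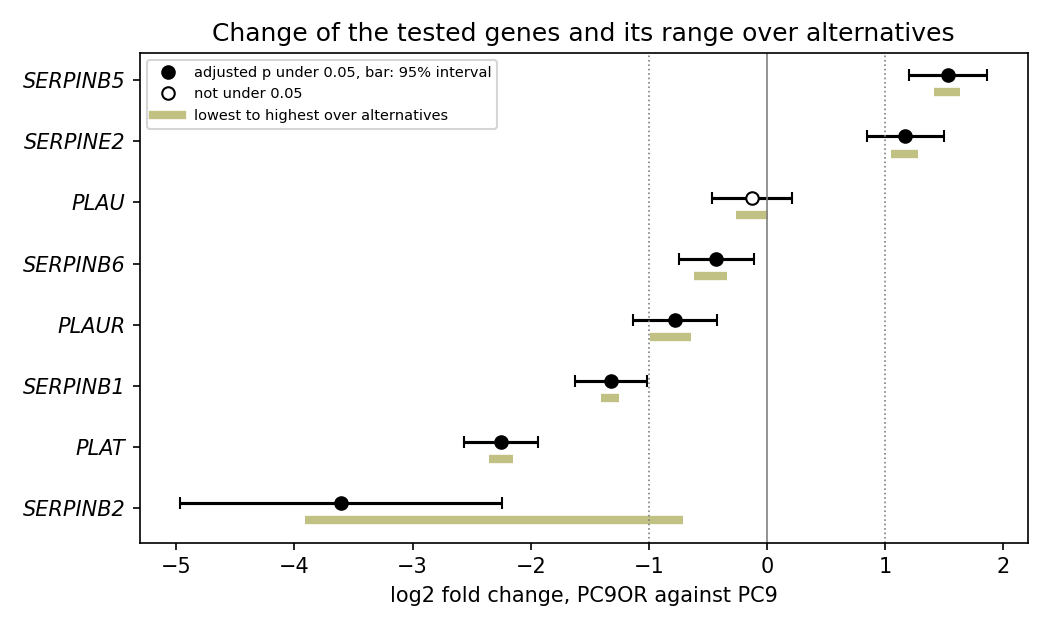
Log2 fold change of the 8 tested genes, PC9OR against PC9. Points are edgeR estimates with 95% intervals, filled where the adjusted p was under 0.05, the bars beneath run from the lowest to the highest value over the alternatives, and dotted lines mark a 2-fold difference. SERPINB5 and SERPINE2 lie to the right of 0 in every setting, the interval of PLAU spans 0, and SERPINB2 has the widest interval and range.

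The order of the levels also differed between the lines. In PC9 cells *PLAU* led with a mean of 112 ± 2.69 FPKM, followed by *PLAT* (63.5 ± 4.98), *SERPINB6* (60.1 ± 4.31) and *SERPINE2* (54.7 ± 6.77; SD, n = 2 each). The ranges of *PLAT* and *SERPINB6* overlapped, as did those of *SERPINB6* and *SERPINE2*, so their order is not set by these libraries. *PLAUR* (37.3 ± 1.65), *SERPINB1* (26.3 ± 1.65) and *SERPINB5* (21.3 ± 2.11) followed in separate ranges. In PC9OR cells *SERPINE2* led with 120 ± 6.86 FPKM, above *PLAU* at 101 ± 14.6, and the range of *SERPINE2* from 114.8 to 124.5 FPKM lay above that of *PLAU* from 90.5 to 111.2. *SERPINB5* (60.3 ± 3.87), *SERPINB6* (43.3 ± 1.37), *PLAUR* (21.4 ± 3.13), *PLAT* (13 ± 0.410) and *SERPINB1* (10.3 ± 0.375) followed without overlap. *SERPINB2* and *SERPINA1* stayed under 1 FPKM in every library.

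The clade B serpins lie in clusters on chromosomes 6 and 18. On chromosome 18 of GRCh37, *SERPINB5* runs from 61144191 to 61172318 and *SERPINB2* from 61538926 to 61571122, both on the plus strand. In gene order the tested serpins between and beside them are *SERPINB4*, *SERPINB3* and *SERPINB7*, then *SERPINB2* and *SERPINB8*. These neighbours did not move together. *SERPINB5* and *SERPINB7* rose, with log2 fold changes of 1.53 and 1.25, and *SERPINB4*, *SERPINB3*, *SERPINB2* and *SERPINB8* fell, with -1.81, -1.82, -3.60 and -1.13. Of these, *SERPINB2* passed the filter on low counts only through PC9 cells, so it had to be lower in PC9OR cells if it differed. The adjusted p was 0.0264 for *SERPINB7*, 0.0259 for *SERPINB4*, 0.0142 for *SERPINB3* and 0.00935 for *SERPINB8* (edgeR's quasi-likelihood test). The calls of *SERPINB7* and *SERPINB4* did not hold when either PC9OR library was left out, and that of *SERPINB3* did not hold without PC9OR replicate 1. How the counting divided reads between the nearly identical *SERPINB3* and *SERPINB4* is uncertain. *VPS4B*, the tested gene before *SERPINB5*, had a log2 fold change of 0.20 (adjusted p = 0.187). Of the 10 tested genes nearest to *SERPINB5*, 1 was higher and 7 were lower, with a median log2 fold change of -0.93. The 7 include *SERPINB2*. Over all genes tested, 15.6% were higher and 20.8% were lower.

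**Figure D4:**
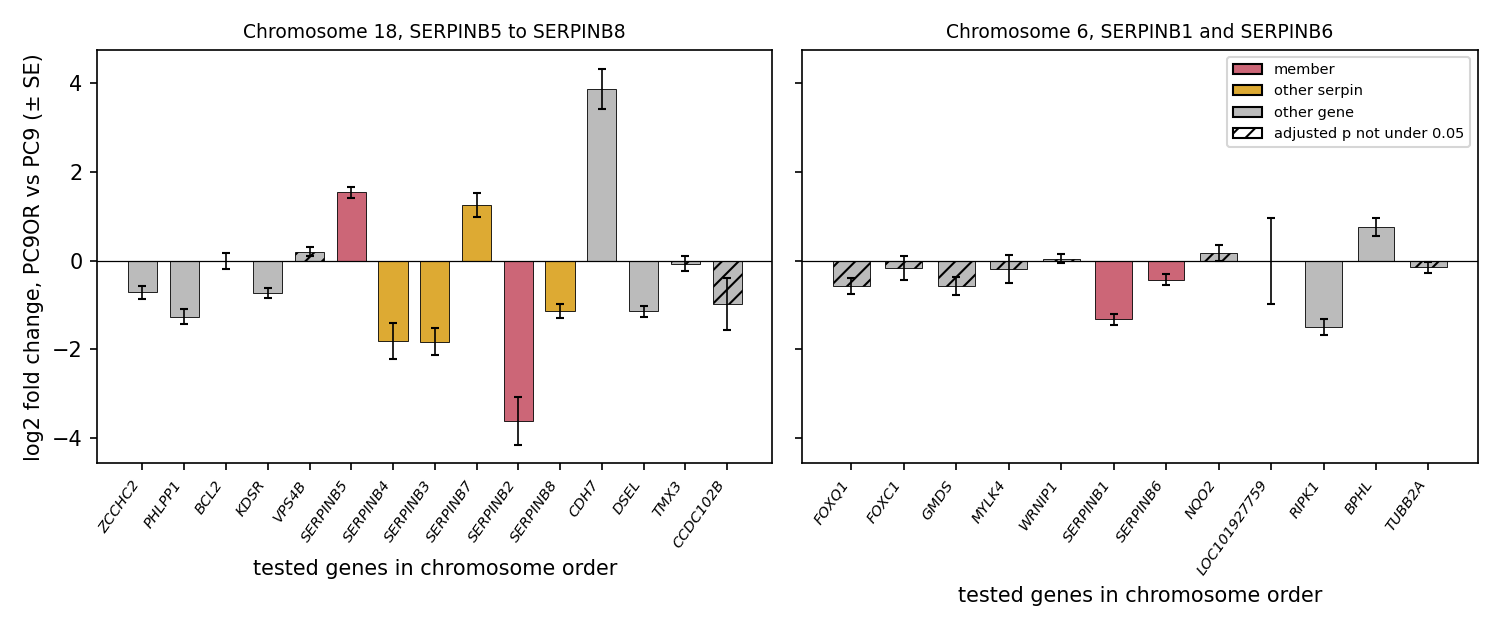
Log2 fold change with its standard error for tested genes in chromosome order around SERPINB5 and SERPINB2 (left) and around SERPINB1 and SERPINB6 (right). Hatching marks an adjusted p that was not under 0.05. Within the left cluster SERPINB5 and SERPINB7 are above 0 and the 4 other serpins are below 0, while on the right both serpins are below 0. SERPINB2 passed the filter on low counts only through PC9 cells.

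On chromosome 6 the neighbours *SERPINB1*, from 2832566 to 2842193, and *SERPINB6*, from 2948393 to 2972399, both on the minus strand, were both lower in PC9OR cells, by different amounts. The 10 tested genes nearest to *SERPINB1* had a median log2 fold change of -0.18, with 1 higher and 2 lower. Over all genes tested, 15.6% were higher and 20.8% were lower. Around the other genes the medians were -0.01 for *SERPINE2*, -0.13 for *PLAU*, 0.25 for *PLAT* and 1.03 for *PLAUR*. *PLAUR* thus fell among 10 tested neighbours of which 6 were higher and 1 was lower, beside the same shares over all genes tested. The 6 include a gene that passed the filter on low counts only through PC9OR cells.

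The sequences before the start sites of *SERPINB5* and *SERPINB2* are shown because these genes of a single cluster moved in opposite directions, and that of *SERPINE2* because it is the other member that rose. Because *SERPINB2* passed the filter on low counts only through PC9 cells, it had to be lower in PC9OR cells if it differed. Each is 250 bases of the plus or minus strand that end just before a start site in RefSeq's promoter table for GRCh38.p14, matched exactly and at a single place to the chromosome in GRCh37, and each lies outside the annotated exons of its gene. Capitals mark matches, on either strand, to the AP-1, GC box, E box and TATA box motifs spelled out after them. The windows are chr18:61143941-61144190 on the plus strand for *SERPINB5*, chr18:61554689-61554938 on the plus strand for *SERPINB2* and chr2:224896196-224896445 on the minus strand for *SERPINE2*.
SERPINB5: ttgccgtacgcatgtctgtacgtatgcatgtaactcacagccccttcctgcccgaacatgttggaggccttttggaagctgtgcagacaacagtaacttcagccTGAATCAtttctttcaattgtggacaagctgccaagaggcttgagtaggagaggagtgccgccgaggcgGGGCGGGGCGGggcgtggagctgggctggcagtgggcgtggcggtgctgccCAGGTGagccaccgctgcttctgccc
SERPINB2: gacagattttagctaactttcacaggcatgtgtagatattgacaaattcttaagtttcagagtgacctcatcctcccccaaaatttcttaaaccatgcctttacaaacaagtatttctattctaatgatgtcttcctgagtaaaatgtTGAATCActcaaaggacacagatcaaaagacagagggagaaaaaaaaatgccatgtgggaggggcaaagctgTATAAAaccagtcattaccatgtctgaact
SERPINE2: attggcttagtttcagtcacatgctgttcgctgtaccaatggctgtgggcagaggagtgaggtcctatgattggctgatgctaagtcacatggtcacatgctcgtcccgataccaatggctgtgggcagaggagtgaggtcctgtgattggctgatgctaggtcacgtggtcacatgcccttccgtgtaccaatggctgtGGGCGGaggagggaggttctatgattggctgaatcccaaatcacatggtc

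The windows of *SERPINB5* and *SERPINB2* both hold an AP-1 match (TGANTCA), which begins 146 and 102 bases before the start site, and 6.6% of the 35116 RefSeq promoter windows of this length hold the motif. Otherwise they differ in base composition. The *SERPINB5* window has a GC content of 60.0% with 13 CpG dinucleotides, GC boxes that begin 77 and 72 bases before the start and overlap each other, and an E box at 26 bases. The *SERPINB2* window has a GC content of 37.2%, 0 CpG dinucleotides and a TATA box that begins 30 bases before the start. The *SERPINE2* window has a GC content of 53.2% with 6 CpG dinucleotides and a GC box at 50 bases. It lies within the span of the gene, and *SERPINE2* has a further start site upstream of it in the same table. The window before that site, which overlaps an annotated exon, differs in composition. Its GC content is 75.2%, with 28 CpG dinucleotides and GC boxes at 230 and 183 bases. The GC box was searched as GGGCGG, which 42.6% of all these windows hold. The E box was searched as CACCTG, held by 17.5% of the windows. The TATA box was searched as TATAAA, held by 10.7% of the windows. The window of *PLAUR*, which fell, also holds an AP-1 match, at 186 bases. The windows of *PLAU*, *SERPINB1*, *SERPINB6*, *SERPINA1* and *SERPINE2* hold no AP-1 match, and the bases before *PLAT* are not reported here. A match is a description of the letters and not a bound site.

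Beyond the 6 serpins among the 9 genes, 29 further serpin genes were counted. Of these, 13 were listed in at least 1 library and 8 were tested, of which 3 were higher, 3 were lower and 2 did not pass, with a median log2 fold change of 0.54. The shares over all genes tested were 15.6% higher and 20.8% lower. *SERPINH1*, the collagen chaperone HSP47 of the endoplasmic reticulum, stood at 147 and 174 CPM in PC9 cells and at 366 and 346 CPM in PC9OR cells, a log2 fold change of 1.15 (adjusted p = 0.00686, edgeR's quasi-likelihood test). *SERPIND1*, heparin cofactor II, rose from 0.810 and 0.763 CPM to 2.90 and 3.10 CPM, a log2 fold change of 1.93 (adjusted p = 0.0148). It lies on the opposite strand of *PI4KA*, which overlaps 13608 of its bases and had a log2 fold change of 2.50 (adjusted p = 0.00533), and the sources used here do not give whether strand was used in the counting, so their reads may not be separate.

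The fallen serpins of this list included *SERPINB8*, at 61.2 and 51.1 CPM in PC9 cells and 27.6 and 23.7 CPM in PC9OR cells, and *SERPINB3*, a squamous epithelial inhibitor, at 5.16 and 6.54 against 1.44 and 1.87 CPM. *SERPINB4* is nearly identical to *SERPINB3*, so how the counting divided reads between them is uncertain. The calls of *SERPINB4*, *SERPINB7* and *SERPIND1* did not hold when either PC9OR library was left out, and that of *SERPINB3* did not hold without PC9OR replicate 1 (log2 fold change -1.64, adjusted p = 0.0712, edgeR's quasi-likelihood test). *SERPINF2*, the plasma inhibitor of plasmin, had 6.40 and 9.74 CPM in PC9 cells and 10.3 and 7.72 CPM in PC9OR cells, and *SERPINI1*, neuroserpin, an inhibitor of tissue plasminogen activator, had 0.938 and 0.797 against 1.62 and 1.66 CPM. Neither passed the test, with adjusted p of 0.691 and 0.104.

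Of 19 other genes of the plasminogen system, some of which are serpins of the preceding list, 16 were listed and 10 were tested. 2 were higher, 2 were lower and 6 did not pass, beside shares of 15.6% higher and 20.8% lower over all genes tested. Their median log2 fold change was 0.16. *PLG*, which encodes plasminogen itself, had at most 0.0427 CPM and was at 0 in 1 library of each line. Its transcript was thus under the floor in these cells, and plasminogen protein was not measured. Among the cell-surface plasminogen receptors, *PLGRKT* rose from 10.9 and 15.0 CPM to 26.9 and 28.2 CPM (log2 fold change 1.08, adjusted p = 0.0158, edgeR's quasi-likelihood test), a call that did not hold without PC9OR replicate 2 (1.05, adjusted p = 0.0540). The annexin A2 gene *ANXA2*, its partner *S100A10* and *ENO1* had log2 fold changes of 0.03, 0.16 and 0.19, and none passed the test.

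The other changed genes of the system encode receptors that clear complexes of activators and inhibitors from the cell surface. *LRP1* stood at 112 and 58.6 CPM in the PC9 libraries and at 18.9 and 20.2 CPM in the PC9OR libraries, and both resistant libraries were lower although the parental libraries lay far apart. Its log2 fold change was -2.12 (adjusted p = 0.0116, edgeR's quasi-likelihood test), and with an offset for transcript length it was -1.04 (adjusted p = 0.0106), both within a range from -2.53 to -1.02 over the alternatives. *VLDLR* fell from 15.7 and 12.5 CPM to 5.62 and 4.61 CPM (log2 fold change -1.46, adjusted p = 0.0117). *SORL1* rose from 24.6 and 20.7 CPM to 55.8 and 52.4 CPM (log2 fold change 1.26, adjusted p = 0.00659), and with the offset for transcript length its log2 fold change was 2.05.

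**Figure D5:**
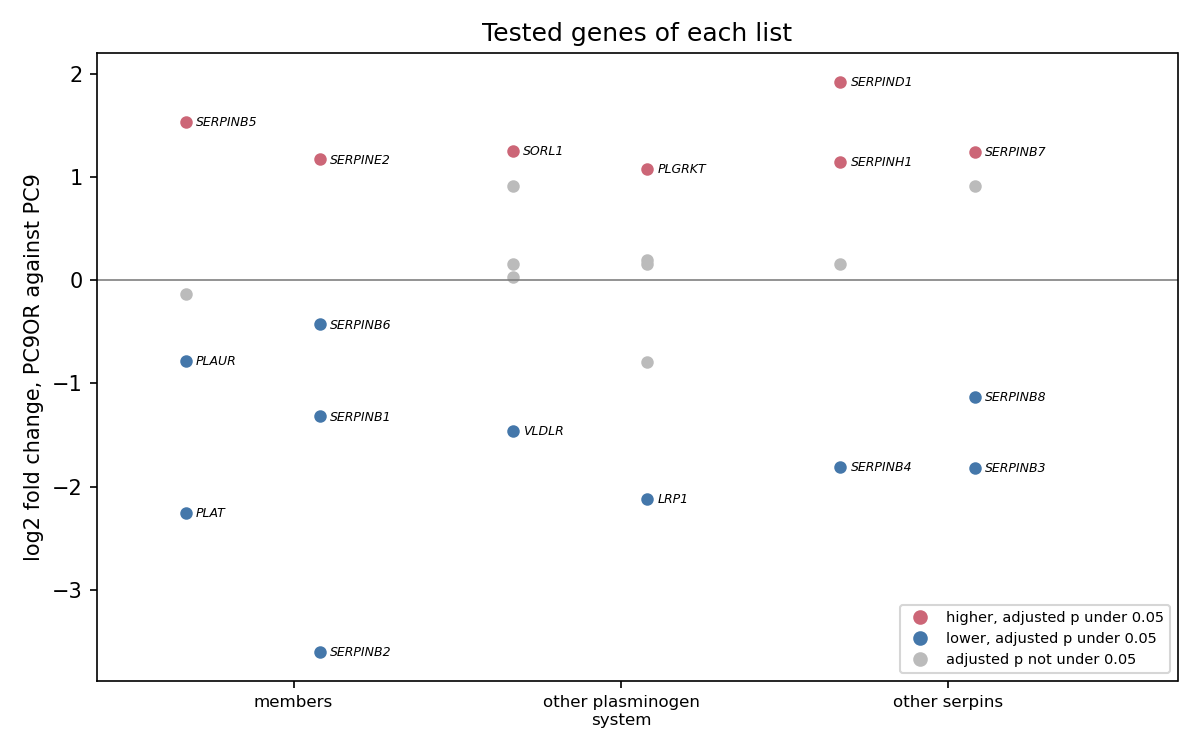
Log2 fold change, PC9OR against PC9, of the tested genes among the 9 members, among the other genes of the plasminogen system and among the other serpins. Coloured points had an adjusted p under 0.05 and are named, grey points did not, and each group holds genes on both sides of 0.

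The counting of the members rests mostly on sequence of their own. Over all annotated transcripts of a gene, between 0% and 1.17% of the 50-base words were shared with another gene for the 9 members other than *SERPINB2*. For *SERPINB2* it was 18.3%, all with a coding gene model that overlaps it on the same strand. The expected counts of *SERPINE2* and *SERPINB1* were not whole numbers in any library, and those of *PLAT* were whole in 3 of the 4, while the other 6 members had whole counts throughout.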

How the data were processed

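RNA of PC9 and PC9OR cells was sequenced from TruSeq Stranded libraries, 2 per line, and grouped by the labels. The authors deposited expected counts, estimated reads per gene that are not normalised, together with transcript lengths and FPKM values, scaled per kilobase and to library size. The methods name SOAP for read filtering, and the submitters' processing notes list Bowtie2 2.2.5, RSEM 1.2.12 and GRCh37, without their roles. Whether the counting used strand is not given in the sources used here. Genes absent from a file were set to 0.

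Expected counts were rounded and tested with edgeR 4.0.16 in R 4.3.3 (TMM, filterByExpr, glmQLFit, glmQLFTest), with Benjamini-Hochberg adjustment over all 13148 genes and a call at an adjusted p under 0.05. The replicate number was not in the model. Alternatives were DESeq2 1.42.0 (size factors, Wald test), library totals, a reimplemented MA-plot-based model after DEGseq, which the study names, limma 3.58.1 on log2(FPKM + 1) and log2(FPKM + 0.1), other filters on low counts, the replicate block, offsets for transcript length by mgcv 1.9.3, and each library left out. CPM were calculated with TMM sizes, and counts per library set the floor of 3 counts.

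Of the genes, 99.66% had a symbol. Positions came from GENCODE lifted to GRCh37, and the RefSeq tables, on GRCh38.p14, gave names, gene order and promoter bases only. The named genes are the 9 members, *PLG*, *SERPINF2*, *SERPINI1*, up to 4 called genes per direction of each list by size, and serpins beside a member; *VPS4B*, *ANXA2*, *S100A10*, *ENO1*, *PI4KA*, *C10orf55*, *TIMP3*, *F3*, *F2RL1*, *ST14* and markers were named outside this rule. A few genes of the fixed lists are not reported here and are left out of the lists' counts. The members and lists were chosen with earlier results of these data known.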

Additional observations from a re-analysis of the deposited data

How the results depend on the processing

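*SERPINB2* passed the filter on low counts only through PC9 cells, so it had to be lower in PC9OR cells if it differed. It kept that direction in the 14 alternatives in which it was tested. *SERPINE2*, *PLAT*, *SERPINB5* and *SERPINB1* kept their direction in 15 of 15 alternatives, and an adjusted p under 0.05 in those with all libraries. The members counted as higher stayed at 2 in each, and with each library left out they ranged from 2 to 2. The members counted as lower ranged from 3 to 5 with a library left out, with 3 without PC9OR replicate 1 and 3 without PC9OR replicate 2, where *PLAUR* and *SERPINB6* were not called. These fits leave a single PC9OR library, which is assumed to vary like the others. *PLAU* ranged from -0.27 to 0.0056 with a library left out, reversed without PC9OR replicate 2 (adjusted p = 0.992).

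With a library left out, the genes counted as higher ranged from 525 to 3932 and those as lower from 1177 to 3929, against 2056 and 2734. The lowest counts came without PC9OR replicate 1 and the highest higher count without PC9 replicate 2. The other serpins ranged from 1 to 3 higher and from 1 to 3 lower, and the other plasminogen system genes from 1 to 4 higher and from 2 to 2 lower. The MA-plot-based model on summed replicates called 5594 genes higher, 5459 lower and 5 other plasminogen system genes higher. The offset for transcript length with replicate block called 3153 genes higher. More than 2-fold change in addition left 806 genes higher, 1523 lower and 3 members lower.

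More than 2-fold and an adjusted p under 0.001 is the threshold that the study names. There, edgeR's quasi-likelihood test in its main setting called 0 genes in either direction. This setting used TMM, filterByExpr and all libraries, without the block or an offset. It thus called 0 members, 0 other serpins and 0 other plasminogen system genes. At an unadjusted p under 0.05 it had 3137 genes higher and 3516 lower. Its lowest adjusted p was 0.00155. Under other settings the same test did call genes, among them 304 genes higher and 880 lower with the replicate block (2 members higher and 2 lower), 467 and 832 with the offset for transcript length as well, 38 and 42 with the offset alone, and 161 and 507 without PC9 replicate 2. At that threshold the Wald test of DESeq2 gave 497 higher and 1238 lower. The MA-plot-based model gave 1035 and 1774, and both tests had 2 members higher and 3 lower. The cause of these differences was not tested.

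Same-numbered libraries had a correlation of 0.0553 between their deviations from the line means. The labels give them no more than a shared number, and this correlation cannot show whether they shared a batch. The replicate block gave 2593 genes higher and 2946 lower, with 2 members higher and 5 lower. Depth limits *SERPINA1* and *SERPINB2*, which are at or near 3 counts in PC9OR libraries.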

Other observations

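Other protease systems of the cell surface and matrix were looked up in the same fit (quasi-likelihood test of edgeR, Benjamini-Hochberg adjusted). Of 24 genes of matrix metalloproteinases and their inhibitors, 16 were tested, 4 were higher, 5 were lower and 7 did not pass, with a median log2 fold change of -0.16. Among all genes tested, 15.6% were higher and 20.8% were lower. The higher genes were collagenases, a gelatinase and stromelysin 3. *MMP13* stood at 0.0853 and 0.0693 CPM in PC9 and 1.40 and 1.53 CPM in PC9OR cells, *MMP9* at 0.512 and 0.381 against 7.40 and 5.72 CPM, *MMP11* at 0.171 and 0.555 against 3.43 and 3.28 CPM, and *MMP1* at 2.56 and 4.58 against 8.65 and 11.4 CPM. *MMP13* had 2 and 2 expected counts in the PC9 libraries, under the floor of 3, and *MMP11* had 4 and 16, so both passed the filter on low counts only through PC9OR cells, had to be higher there if they differed, and were removed by a requirement of 10 counts in every library. No fold is given for *MMP13*. The log2 fold changes of *MMP9* and *MMP1* were 3.87 and 1.48, and without PC9OR replicate 2 the call of *MMP1* did not hold (1.28, adjusted p = 0.117). That of *MMP11* was 3.16, 0.88 on the scale log2(FPKM + 1) and 4.25 without PC9 replicate 2. The tissue inhibitors *TIMP2* and *TIMP1* were lower, with log2 fold changes of -2.21 and -0.93, as was *TIMP3* with -0.46. *TIMP1* lost its call without PC9OR replicate 2 (-0.80, adjusted p = 0.107) and *TIMP3* with the offset for transcript length (-0.12, adjusted p = 0.383) and without either PC9OR library. *MMP16* was lower with -2.45, and *MMP24* had a mean of 1.03 CPM in PC9 cells and 0 counts in both PC9OR libraries. Against a floor of 3 counts per library this is at least 11-fold lower. *MMP24* is among the 5 lower genes but passed the filter on low counts only through PC9 cells. It thus had to be lower in PC9OR cells if it differed, and on the scale log2(FPKM + 1) its log2 fold change was -0.23.

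Of 30 genes of other serine proteases and their inhibitors, 18 were tested, 4 were higher, 5 were lower and 9 did not pass, with a median log2 fold change of -0.19. Beside these counts, 15.6% of all genes tested were higher and 20.8% were lower. *PRSS23* stood at 126 and 148 CPM in PC9 and 419 and 396 CPM in PC9OR cells (log2 fold change 1.57, adjusted p = 0.00479), and *TMPRSS4*, *KLK6* and *SPINT2* were higher with 3.04, 0.85 and 0.67. *TMPRSS4* also passed the filter only through PC9OR cells. The elastase inhibitor elafin, *PI3*, stood at 77.4 and 72.3 against 9.43 and 9.22 CPM (-3.00, adjusted p = 0.00190), and the secretory leukocyte peptidase inhibitor *SLPI* at 135 and 187 against 54.3 and 58.2 CPM (-1.52, adjusted p = 0.00797). *KLK10*, *SPINT1* and *ST14* were lower with -1.79, -0.99 and -0.79. Without PC9OR replicate 1 the list had 1 higher and 3 lower. Calls were lost when a PC9OR library was left out for *TMPRSS4* (replicate 1, 2.73, adjusted p = 0.0505), *KLK10* (replicate 1, -1.61, adjusted p = 0.0531), *SPINT1* (replicate 2, -0.88, adjusted p = 0.0870) and, with either, for *KLK6*, *SPINT2* and *ST14* (adjusted p = 0.0902 and 0.119).

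Of 17 genes of coagulation and the protease-activated receptors, 10 were tested, 5 were lower and 0 were higher, against 20.8% lower and 15.6% higher over all genes tested. There were 0 higher also at an unadjusted p under 0.05 and by DESeq2's Wald test, 2 by the MA-plot-based model and 1 without PC9 replicate 1, while 3 and 2 were lower without PC9OR replicate 1 and 2. *THBD*, thrombomodulin, stood at 48.4 and 48.0 CPM in PC9 and 11.6 and 11.3 CPM in PC9OR cells (log2 fold change -2.07, adjusted p = 0.00303), and *F2RL2*, a thrombin receptor, at 4.65 and 3.22 against 0.250 and 0.281 CPM (-3.87, adjusted p = 0.00646). *F2RL2* had 8 and 9 expected counts in the PC9OR libraries and passed the filter only through PC9 cells, and on the scale log2(FPKM + 1) its value was -0.80. *TFPI2* and the protease-activated receptor gene *F2RL1* fell by 0.72 and 0.68 on the log2 scale, and both lost their calls without either PC9OR library. *PROCR*, with -1.22 (adjusted p = 0.0497), lost its call in 4 of 15 alternatives, among them without PC9 replicate 2 (-0.81, adjusted p = 0.0912) and without PC9OR replicate 2 (-0.93, adjusted p = 0.172). *F3*, which encodes tissue factor, stood at 488 and 467 against 482 and 474 CPM.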
